A study of Homo sapiens with 4 samples.

Results

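The serine- and arginine-rich splicing factors (SR proteins), the heterogeneous nuclear ribonucleoproteins (hnRNPs) and the CDC-like kinases (CLKs) were examined in OVCAR5 cells with and without a short hairpin RNA (shRNA) against the forkhead transcription factor gene FOXK2. Members were chosen by gene symbol, with earlier results of these data known. They were the genes named SRSF or HNRNP followed by their own number or letters, without pseudogenes. Added by name were the 4 CLK genes, TRA2A, TRA2B and 8 splicing coactivators and U1-associated factors (SRRM1, SRRM2, SON, LUC7L, LUC7L3, RBM25, RBM39 and PNISR). This gave 51 genes of 56655 symbols in the count tables, with 14 SR proteins (TRA2A and TRA2B included), 25 hnRNP genes, 4 CLK kinases and 8 coactivators and U1-associated genes. Of the 51 genes, 46 had enough counts to be tested and 5 did not.

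OVCAR5 is an established human ovarian cancer line, which the labels describe as high grade serous with ascites as its source. All libraries came from cells carrying a stably integrated lentiviral pLKO.1-puro vector, kept under puromycin, at passage 4-6. The shCtrl group (2 libraries) carried a non-targeting hairpin and the shFOXK2 group (2 libraries) carried a single hairpin against FOXK2, so an effect of that hairpin's sequence and an effect of FOXK2 cannot be told apart. The study describes its replicates as biological, and the sources used here do not say whether those of a group came from separate transductions.

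SR proteins bind purine-rich exonic enhancers through RNA recognition motifs and recruit U1 and U2 components through a tail of alternating arginine and serine residues, the RS domain. CLK kinases, which carry such a tail of their own, phosphorylate the RS domain and release SR proteins from nuclear speckles. The hnRNPs coat nascent transcripts and often oppose SR proteins at the same exon, and many genes of both families limit their own level by splicing in a premature stop codon, which sends the transcript to nonsense-mediated decay.

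The coding sequences of several members hold long runs of A and G, which encode stretches of lysine, glutamate and arginine. These stretches are shown because the change between groups moved with A content, as described further on. Each is the most A-rich window of 90 bases inside 1 coding exon, on build hg38, printed 5' to 3' on the gene's strand with runs of at least 8 purines in capitals, and the windows were picked for display after the fold changes were known. The first 5 belong to the genes with the largest rises among members other than HNRNPA1L2, SON and RBM39 have A-rich windows and did not pass the test, and SRSF2 rose with an A-poor window, where the median window of protein-coding genes tested was at 37.8% A. RBM25 (chr14:73110863-73110952, plus strand, exon 15 of 19), LUC7L3 (chr17:50745784-50745873, plus strand, exon 8 of 10), PNISR (chr6:99400856-99400945, minus strand, exon 12 of 12) and SRSF11 (chr1:70250365-70250454, plus strand, exon 11 of 12) come first. SRRM1 (chr1:24671399-24671488, plus strand, exon 16 of 17), SON (chr21:33549547-33549636, plus strand, exon 3 of 12), RBM39 (chr20:35732011-35732100, minus strand, exon 4 of 17) and SRSF2 (chr17:76736176-76736265, minus strand, exon 2 of 3) follow.
RBM25: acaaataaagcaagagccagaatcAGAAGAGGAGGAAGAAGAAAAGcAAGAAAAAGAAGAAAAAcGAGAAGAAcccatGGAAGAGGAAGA
LUC7L3: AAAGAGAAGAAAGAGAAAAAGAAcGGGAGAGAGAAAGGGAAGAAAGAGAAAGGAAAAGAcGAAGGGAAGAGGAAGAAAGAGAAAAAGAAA
PNISR: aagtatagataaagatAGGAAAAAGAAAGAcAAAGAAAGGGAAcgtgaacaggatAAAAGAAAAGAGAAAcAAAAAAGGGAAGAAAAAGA
SRSF11: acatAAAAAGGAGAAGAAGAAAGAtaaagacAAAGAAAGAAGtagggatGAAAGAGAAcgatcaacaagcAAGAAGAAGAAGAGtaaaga
SRRM1: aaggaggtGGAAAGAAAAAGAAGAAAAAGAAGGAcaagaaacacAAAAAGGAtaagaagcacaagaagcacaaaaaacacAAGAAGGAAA
SON: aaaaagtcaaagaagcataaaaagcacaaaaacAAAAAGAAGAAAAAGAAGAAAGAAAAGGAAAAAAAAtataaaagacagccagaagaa
RBM39: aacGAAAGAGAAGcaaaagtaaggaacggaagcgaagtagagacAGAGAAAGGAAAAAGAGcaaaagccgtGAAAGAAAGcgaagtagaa
SRSF2: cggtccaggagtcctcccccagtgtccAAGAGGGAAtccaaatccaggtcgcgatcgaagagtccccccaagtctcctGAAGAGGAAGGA

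The LUC7L3 window was 97.8% purine and 62.2% A, with a longest unbroken purine run of 35 bases. A content was 63.3% in the PNISR and SRRM1 windows, 60.0% in SRSF11, 57.8% in RBM25, 70.0% in SON, 54.4% in RBM39 and 26.7% in SRSF2.

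Library totals ran from 14284005 to 21950873 counts, and the shFOXK2 libraries had counts for 26780 and 30717 symbols against 25682 and 23724 in shCtrl. FOXK2 itself (chr17:82519713-82644662) was at 80.5 and 93.4 CPM (counts scaled to a common library total) in the shCtrl libraries and at 76.3 and 59.5 CPM in the shFOXK2 libraries, a log2 fold change of -0.36 (SE 0.25, edgeR adjusted p = 0.257). The groups did not overlap, and the difference did not pass the test, so the RNA level of the target in these libraries gives the labels a weak check. The study itself reported lower FOXK2 mRNA by quantitative PCR and lower FOXK2 protein by Western blot in OVCAR5 cells carrying its FOXK2 hairpins. With offsets for transcript A content or GC content (smooth corrections over all genes, described further on) the log2 fold change of FOXK2 was -0.03 (edgeR adjusted p = 0.906) and -0.06 (edgeR adjusted p = 0.78), so the difference in the target's RNA nearly vanished. The epithelial markers KRT8, KRT18, KRT19 and EPCAM were high in every library, with the 5-gene list including CDH1 summing to between 3436 and 4785 CPM, while CDH1 (E-cadherin) itself was at 20.6 and 16.2 CPM in shCtrl and at 0.914 and 1.32 CPM in shFOXK2. PAX8, an ovarian serous marker, was at 15.7 and 20.9 CPM in shCtrl against 11.0 and 8.90 CPM in shFOXK2. Of the other ovarian serous markers, WT1 was at 0 to 2 counts. MUC16 was at 17.8 and 9.03 CPM in shCtrl against 0 and 0.44 CPM in shFOXK2, and MSLN was at 3.36 and 3.24 CPM against 7.87 and 6.37 CPM. Among fibroblast markers, COL1A1 was between 12.6 and 15.9 CPM and COL3A1 was at 0 to 2 counts. PDGFRB was at 5.69 and 5.42 CPM in shCtrl against 0.14 and 0.44 CPM in shFOXK2. The leukocyte markers PTPRC and CD3E were at 0 to 3 counts, while CD14 was at 17.4 and 22.3 CPM in shCtrl against 8.72 and 9.23 CPM in shFOXK2, and CDH5 and PECAM1, endothelial markers, summed with VWF to 10.6 and 7.72 CPM in shCtrl against 0.633 and 1.98 CPM in shFOXK2. The speckle-associated noncoding RNA MALAT1 was at 420.3 and 249.8 CPM in shCtrl and at 11950 and 9973 CPM in shFOXK2, and the part of MALAT1 and of these markers in the results below was not tested.

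In the comparison of shFOXK2 with shCtrl, 21 of the 46 tested members rose and 1 fell by the edgeR quasi-likelihood test at an adjusted p under 0.05, and 24 did not pass. Among all 16417 genes tested, 25.7% rose and 22.7% fell (48.4% called in all), so the members were called about as often as other genes and more of their calls were rises. The median log2 fold change of the tested members was 0.57 (interquartile range 0.07 to 0.97), against 0.04 over all genes tested. In 33 members both shFOXK2 libraries lay above both shCtrl libraries and in 7 both lay below, where 39.2% of all tested genes lay above and 36.2% below (75.4% with groups that did not overlap). The median dropped to 0.33 without the shCtrl 2 library, and 14 members rose without the shFOXK2 2 library, where 21.2% of all genes did. Tested against a minimum log2 fold change of 1 in place of 0 (edgeR's glmTreat), 7 members rose and none fell, where 12.5% of all genes rose and 8.1% fell. These 7 were RBM25, LUC7L3, PNISR, SRSF11, SRRM1, LUC7L and HNRNPA1L2. Fewer cells with a transcript and less of it per cell cannot be told apart in such bulk RNA.

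Summed over all 51 genes, the members took 9334 and 8588 CPM in the shCtrl libraries and 13460 and 14810 CPM in the shFOXK2 libraries. Most of this sum was hnRNP RNA, at 5700 and 5397 CPM in shCtrl and 7232 and 7826 CPM in shFOXK2. The 8 coactivators and U1-associated genes had the widest gap, from 1470 and 1245 CPM to 3394 and 3847 CPM. The SR proteins went from 2020 and 1805 CPM to 2661 and 2972 CPM, and the CLK kinases from 145.0 and 140.2 CPM to 169 and 159 CPM.

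**Figure D1:**
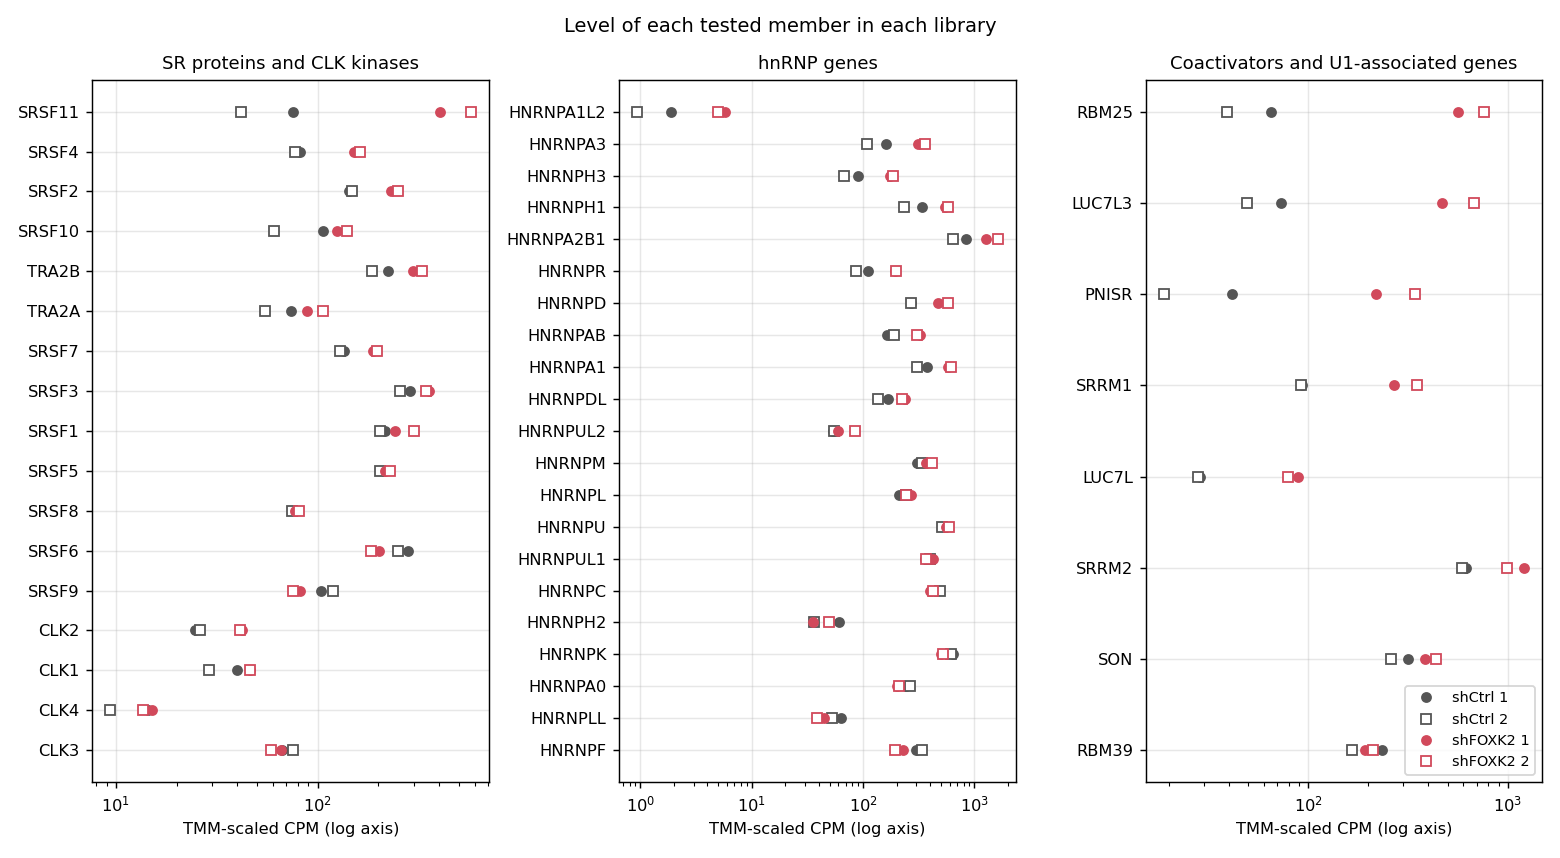
Level of each tested member in each library, in CPM on a log axis, by family, with 1 point per library for the 2 shCtrl and 2 shFOXK2 libraries. RBM25, LUC7L3, PNISR and SRSF11 show shFOXK2 points far above their shCtrl points, while HNRNPF and HNRNPK show them slightly below.

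Among the coactivators and U1-associated genes, 6 of 8 rose and none fell, where 25.7% of all genes tested rose and 22.7% fell. Their median log2 fold change was 1.66. These 8 genes were added by name with earlier results of these data known, so their count does not stand for a family defined by symbol. The largest rise among members of any family was that of RBM25 (chr14:73058532-73123899), an RNA-binding protein with a charged arginine- and glutamate-rich stretch that promotes choice of particular 5' splice sites. It was at 65.1 and 39.2 CPM in shCtrl and at 561 and 760.4 CPM in shFOXK2, which was 12.7-fold higher on the fitted scale (log2 fold change 3.66, SE 0.31, edgeR adjusted p = 2.38e-06). LUC7L3 (chr17:50719565-50756219), a homolog of a yeast U1 component that acts at 5' splice sites, was at 72.7 and 49.4 CPM in shCtrl and at 466 and 678 CPM in shFOXK2 (log2 fold change 3.23, SE 0.29, edgeR adjusted p = 4.10e-06). PNISR (chr6:99397629-99425331), an RS-type protein that binds the speckle protein pinin, was at 41.7 and 18.9 CPM against 218 and 343 CPM (log2 fold change 3.21, SE 0.36, edgeR adjusted p = 2.29e-05). In these genes the lowest shFOXK2 library stood several times above the highest shCtrl library, and in each of them shFOXK2 2 was the higher of its group and shCtrl 2 the lower.

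SRRM1, a splicing coactivator that bridges SR proteins and snRNPs, was at 93.5 and 91.7 CPM in shCtrl and at 269.6 and 351 CPM in shFOXK2 (log2 fold change 1.75, SE 0.24, edgeR adjusted p = 8.90e-05). LUC7L, the paralog of LUC7L3, was at 28.8 and 28.0 CPM against 89.1 and 79.0 CPM (log2 fold change 1.57, SE 0.25, edgeR adjusted p = 0.000247). SRRM2, a scaffold of nuclear speckles, was at 618 and 593 CPM against 1213 and 991 CPM (log2 fold change 0.86, SE 0.24, edgeR adjusted p = 0.00886), with a log2 fold change of 0.69 that did not pass without the shFOXK2 1 library (edgeR adjusted p = 0.0751). All 3 genes had shFOXK2 libraries entirely above the shCtrl libraries. The remaining genes of the group did not pass. SON, the other speckle scaffold, was at 316 and 259 CPM in shCtrl and at 385 and 435 CPM in shFOXK2 (log2 fold change 0.51, SE 0.23, edgeR adjusted p = 0.0858). RBM39, a U2AF-like coactivator, overlapped between the groups at 234 and 166 CPM against 192 and 211 CPM (log2 fold change 0.01, SE 0.24, edgeR adjusted p = 0.978). The counts of RBM25, PNISR, SRRM2 and SON may include or lose reads of genes annotated on the opposite strand, RBM25-AS1, PNISR-AS1, ELOB, and GART with DONSON, since the strand setting of the counting was not stated.

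Of 13 tested SR proteins, 4 rose (30.8%) and none fell, with a median log2 fold change of 0.54. The share of rises was near that of all genes tested, 25.7%, while 22.7% of all genes fell. With the GC offset 3 rose (23.1%), 1 fell (7.69%) and the median was 0.07, where 28.9% of all genes rose and 24.1% fell. The median was 0.25 without shCtrl 2 and 0.43 without shFOXK2 2. SRSF11 (chr1:70205682-70253052), a divergent SR-type factor with a long RS region, was at 75.9 and 41.9 CPM in shCtrl and at 406 and 576 CPM in shFOXK2 (log2 fold change 3.06, SE 0.32, edgeR adjusted p = 1.15e-05). The classical SR proteins moved far less. SRSF4 was at 81.5 and 77.2 CPM against 152 and 162 CPM (log2 fold change 0.98, SE 0.23, edgeR adjusted p = 0.00338). SRSF2, which binds exonic enhancers with G- or C-rich cores, was at 143 and 149 CPM against 231 and 250.2 CPM (log2 fold change 0.72, SE 0.23, edgeR adjusted p = 0.0174). TRA2B, which binds GAA-rich enhancers, was at 224 and 187 CPM against 296 and 328 CPM (log2 fold change 0.60, SE 0.23, edgeR adjusted p = 0.0441). All 4 genes had groups that did not overlap. The SRSF2 call was lost when any library but shFOXK2 1 was left out, at log2 fold changes of 0.66, 0.68 and 0.63. That of TRA2B was lost when any library but shCtrl 1 was left out, at 0.40, 0.65 and 0.50.

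The other 9 tested SR proteins did not pass. SRSF10, TRA2A and SRSF7 had log2 fold changes of 0.67, 0.59 and 0.54, close to that of TRA2B, with edgeR adjusted p-values of 0.0643, 0.0691 and 0.0608. The 2 with the highest CPM among those not called, by the shCtrl and shFOXK2 means together, were SRSF3 and SRSF1, a founding SR protein. SRSF3 was at 288 and 254 CPM against 358 and 344 CPM (log2 fold change 0.37, edgeR adjusted p = 0.19). SRSF1 was at 217 and 204 CPM against 243 and 299.6 CPM (log2 fold change 0.37, edgeR adjusted p = 0.206), and in shCtrl alone SRSF6 was higher than SRSF1. SRSF5 and SRSF8 were level between the groups, with log2 fold changes of 0.09 and 0.06. SRSF6 and SRSF9 had shFOXK2 libraries below the shCtrl libraries, at 201 and 184 CPM against 281 and 249 CPM for SRSF6 (log2 fold change -0.47, edgeR adjusted p = 0.106) and at 81.5 and 75.1 CPM against 104 and 119 CPM for SRSF9 (log2 fold change -0.51, edgeR adjusted p = 0.0896). The paralogs SRSF4 and SRSF6 therefore lay on opposite sides of zero, although only the value of SRSF4 passed, and the difference between them was not tested.

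Of the 4 CLK kinases 1 passed, CLK2, and it rose, with a median log2 fold change of 0.35 over the 4. This median changed with the setting, to 0.03 without shCtrl 2, 0.61 without shCtrl 1, -0.19 under the A-content offset and -0.05 when GC was corrected for. CLK2 (chr1:155262868-155278491) was at 24.6 and 26.2 CPM in shCtrl and at 42.0 and 41.3 CPM in shFOXK2 (log2 fold change 0.71, SE 0.25, edgeR adjusted p = 0.0317). Its call was lost when any 1 of the 4 libraries was left out, with log2 fold changes between 0.63 and 0.70, and edgeR adjusted p-values between 0.0728 and 0.125. CLK1 (chr2:200853009-200864691) was at 39.7 and 28.9 CPM against 46.3 and 46.0 CPM (log2 fold change 0.43, SE 0.26, edgeR adjusted p = 0.197). CLK4 (chr5:178602664-178630615) was at 14.5 and 9.41 CPM against 15.1 and 13.7 CPM, where the groups overlapped (log2 fold change 0.26, SE 0.31, edgeR adjusted p = 0.501). CLK3 (chr15:74598500-74645414), which had the highest level per kilobase of the 4, was at 66.3 and 75.8 CPM against 65.9 and 58.5 CPM (log2 fold change -0.19, SE 0.24, edgeR adjusted p = 0.542). CLK1 and CLK4 transcripts are A-rich, at 32.3% A each, and CLK2 and CLK3 are not, at 24.1% and 24.8%. With an offset that removed the trend of fold change on A content over all genes, CLK1 fell, at -0.51 (edgeR adjusted p = 0.0373), and so did CLK4, at -0.66 (edgeR adjusted p = 0.0354). CLK2 rose under the same offset at 1.06 (edgeR adjusted p = 0.0016), and CLK3 was at 0.14. Of all genes tested, 28.2% rose and 23.0% fell under this offset. The direction of CLK1, CLK3 and CLK4 thus depended on this correction, and that of CLK2 did not.

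Of 21 tested hnRNP genes, 10 rose (47.6%) and 1 fell (4.76%), where 25.7% of all genes tested rose and 22.7% fell. Their median log2 fold change was 0.41. It was 0.22 without shFOXK2 2 and 0.19 without a filter on low counts. With the GC offset 11 rose (52.4%) and 3 fell (14.3%), where 28.9% and 24.1% of all genes did. The genes that rose were HNRNPA1, HNRNPA1L2, HNRNPA2B1, HNRNPA3, HNRNPAB, HNRNPD, HNRNPDL, HNRNPH1, HNRNPH3 and HNRNPR, while HNRNPA0 and HNRNPH2 did not pass. HNRNPA3, an A/B-type protein, was at 159.5 and 109.6 CPM in shCtrl and at 308 and 360.4 CPM in shFOXK2 (log2 fold change 1.31, SE 0.25, edgeR adjusted p = 0.000919). HNRNPA2B1, which binds UAG-containing sites and had the highest CPM of all members, was at 835 and 644 CPM against 1284 and 1621 CPM (log2 fold change 0.97, SE 0.25, edgeR adjusted p = 0.00645). With the GC offset HNRNPA2B1 was not called, at 0.31 (edgeR adjusted p = 0.214). In both, all shFOXK2 values lay above the shCtrl values. HNRNPA1, the antagonist of SRSF1 in splice site choice, was at 373 and 305 CPM against 582 and 614 CPM (log2 fold change 0.82, SE 0.23, edgeR adjusted p = 0.0107). HNRNPAB was at 163 and 190.2 CPM against 323 and 305 CPM (log2 fold change 0.83, SE 0.23, edgeR adjusted p = 0.00874). HNRNPA1L2, a gene nearly identical to HNRNPA1, was at 1.88 and 0.934 CPM against 5.76 and 4.94 CPM (log2 fold change 1.89, SE 0.41, edgeR adjusted p = 0.00189), and reads could be misassigned between the copies, so its value is uncertain.

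HNRNPH1, a binder of G-runs, was at 341 and 234 CPM against 548 and 582 CPM (log2 fold change 0.97, SE 0.25, edgeR adjusted p = 0.00585), and HNRNPH3 was at 90.5 and 67.4 CPM against 176 and 185 CPM (log2 fold change 1.19, SE 0.24, edgeR adjusted p = 0.00139). HNRNPD, also known as AUF1 for its binding of AU-rich elements, was at 272 and 272 CPM against 469.5 and 581 CPM (log2 fold change 0.95, SE 0.23, edgeR adjusted p = 0.00449). Its relative HNRNPDL was at 166 and 136 CPM against 239 and 224 CPM (log2 fold change 0.62, SE 0.23, edgeR adjusted p = 0.0416). HNRNPR, a paralog of SYNCRIP, was at 112 and 86.7 CPM against 192 and 197 CPM (log2 fold change 0.97, SE 0.24, edgeR adjusted p = 0.00441). All 10 genes that rose had shFOXK2 libraries above both shCtrl libraries. Several of these calls were lost when a single library was left out, which also leaves fewer libraries to test on. Without shFOXK2 2, HNRNPA2B1, HNRNPD and HNRNPA1 were no longer called, at 0.77, 0.76 and 0.75. Without shCtrl 2, neither HNRNPH1 nor HNRNPA1 was called, at 0.65 and 0.61, and without shCtrl 1 HNRNPAB was not, at 0.69. HNRNPDL lost its call without any library but shCtrl 1, at 0.41, 0.54 and 0.63.

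HNRNPF (chr10:43385617-43409186), the close relative of HNRNPH1 that binds the same G-runs, was the only member that fell. It was at 297 and 339.9 CPM in shCtrl and at 228 and 195 CPM in shFOXK2 (log2 fold change -0.59, SE 0.23, edgeR adjusted p = 0.0479). The call was lost when any library but shCtrl 1 was left out, at -0.56, -0.73 and -0.51, and with the A-content offset, at -0.39 (edgeR adjusted p = 0.0922). The other 10 tested hnRNP genes did not pass, with log2 fold changes from -0.46 for HNRNPLL to 0.41 for HNRNPUL2. HNRNPK, a poly(C)-binding protein, was at 641 and 619 CPM against 506 and 526 CPM (log2 fold change -0.29, SE 0.23, edgeR adjusted p = 0.312). HNRNPU, a nuclear matrix-associated protein also called SAF-A, was at 541 and 515 CPM against 561 and 595 CPM (log2 fold change 0.13, SE 0.23, edgeR adjusted p = 0.664). HNRNPL, HNRNPM, HNRNPUL1, HNRNPC, HNRNPH2 and HNRNPA0 lay between -0.29 and 0.29.

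**Figure D2:**
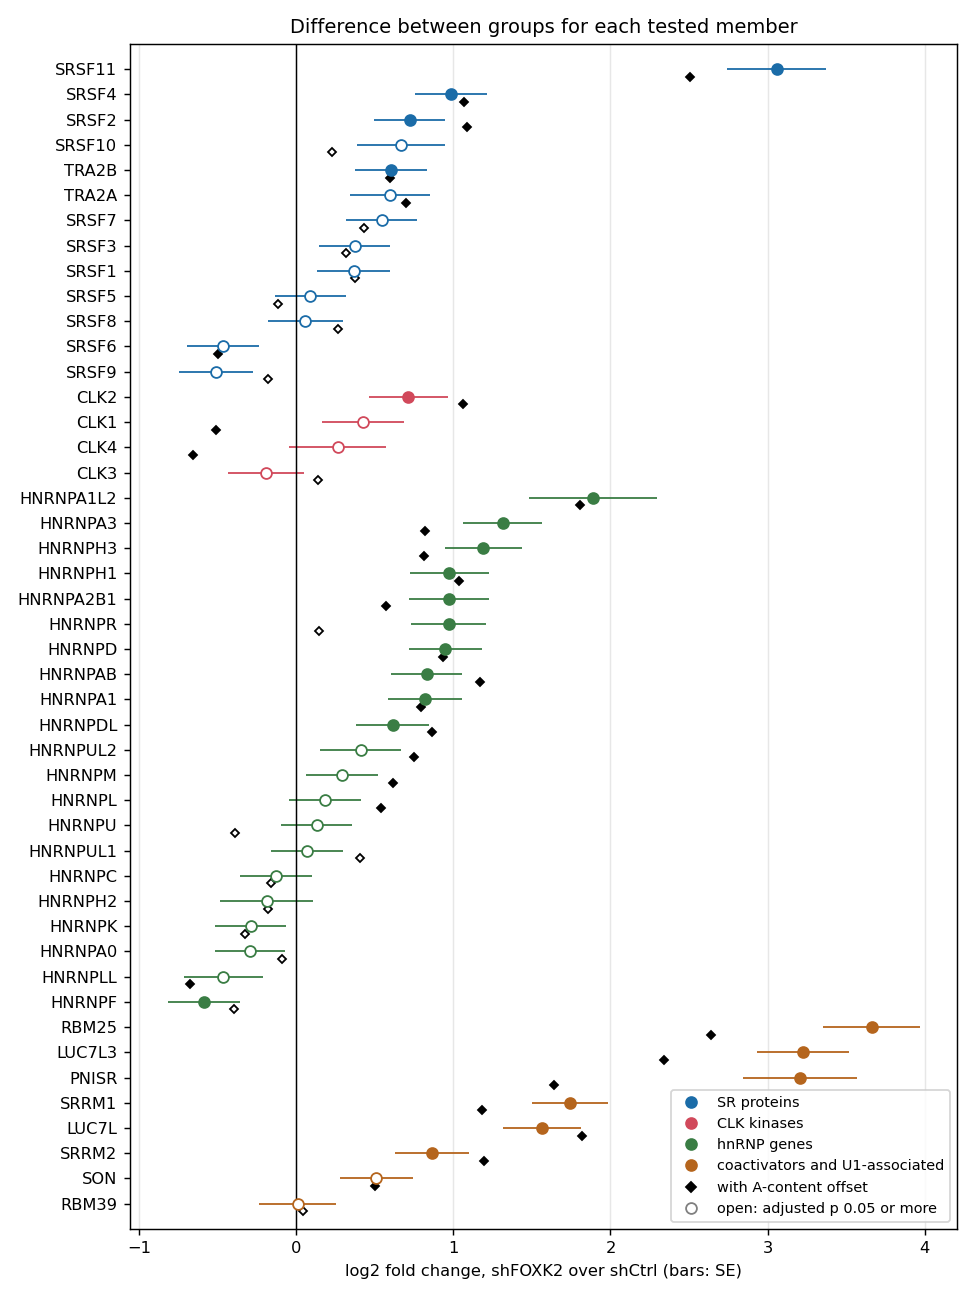
Log2 fold change of each tested member in shFOXK2 over shCtrl, with bars of 1 SE, by family. Coloured circles are values without and black diamonds values with the A-content offset, filled where the edgeR test passed at 0.05. RBM25, LUC7L3, PNISR and SRSF11 stay far to the right on both scales, while CLK1 and CLK4 cross zero.

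The 5 members that could not be tested were at or near zero. SRSF12, a little-studied SR protein, had no count in shCtrl and 1 count in each shFOXK2 library. In the order shCtrl 1, shCtrl 2, shFOXK2 1, shFOXK2 2, HNRNPCL1 had 1, 0, 1 and 0 counts, HNRNPCL2 had 1, 2, 0 and 1, and HNRNPCL3 and HNRNPCL4 had none. The HNRNPCL genes are near-identical copies of one another, so reads that matched several of them may have been discarded. A count of 0 allowed up to 3 counts, which was between 0.135 and 0.211 CPM by library and covers counting error alone.

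Per kilobase of canonical transcript, the order of abundance shifted. HNRNPK ranked at the top in shCtrl with 218 CPM per kb, ahead of HNRNPA2B1 with 204 CPM per kb, and these neighbours overlapped between libraries. In shFOXK2, HNRNPA2B1 led with 400.4 CPM per kb, followed by HNRNPH1 with 252 and HNRNPK with 179. RBM25 moved from rank 43 of 51 (7.66 CPM per kb) to rank 15 (97.0), LUC7L3 from 42 (8.74) to 20 (81.9), PNISR from 44 (5.92) to 28 (54.8) and SRSF11 from 36 (14.9) to 11 (124). HNRNPF went the other way, from 7 to 19, and so did SRSF9, from 11 to 25, and SRSF6, from 18 to 33, although neither SRSF9 nor SRSF6 passed the test. These ranks use 1 transcript per gene, and a change in transcript or 3' end use would alter them.

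Fold change moved with base composition. Across the 46 tested members, the Spearman correlation between transcript A content and log2 fold change was 0.37 (Pearson's r = 0.50), and across 13113 protein-coding genes tested it was 0.34. The points share their libraries and their depths, and genes are not independent replicates. A content also separated libraries of the same group. Its Spearman correlation with the log2 ratio of shCtrl 1 to shCtrl 2 was 0.72 in the members and 0.66 in the protein-coding genes, and with that of shFOXK2 1 to shFOXK2 2 it was -0.38 and -0.26. Of the 13 members with at least 30% A, 9 rose and the median log2 fold change was 1.19, where 46.4% of the 2666 protein-coding genes in that range rose with a median of 0.72. Of the 14 members under 27% A, 6 rose and the median was 0.35, where 12.2% of 7487 genes rose with a median of -0.35. Of the 19 members between these limits, 6 rose and the median was 0.37, where 18.2% of 2961 genes rose with a median of -0.01. The members' median was above that of protein-coding genes of like A content in each range.

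The A-content offset took the relation away (Spearman correlation -0.05 in the members) and left 25 members higher and 4 lower, with a median of 0.55, where 28.2% of all genes tested were higher and 23.0% lower (51.2% called in all). The 4 lower members were SRSF6, HNRNPLL, CLK1 and CLK4. The values of the genes with the largest rises shrank but kept their calls, at 2.64 for RBM25, 2.34 for LUC7L3, 1.64 for PNISR, 2.51 for SRSF11 and 1.18 for SRRM1. HNRNPR lost its call at 0.15 (edgeR adjusted p = 0.488). Values of A-poor members grew, from 1.57 to 1.82 for LUC7L, from 0.86 to 1.20 for SRRM2, from 0.72 to 1.08 for SRSF2 and from 0.83 to 1.17 for HNRNPAB. SON passed with the offset, at 0.50 (edgeR adjusted p = 0.033).

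The composition of the most A-rich coding window set some members apart from most genes. A window of at least 55% A, like those printed above, was found in 6 of 46 tested members and in 329 of 13113 protein-coding genes (2.51%). The 6 members were RBM25, LUC7L3, PNISR, SRSF11, SRRM1 and SON, of which all but SON rose. Among the 329 genes with such a window, 76.3% rose and the median log2 fold change was 1.82, while the median of the 6 members was 3.13 and the difference was not tested. At a limit of 50% A, HNRNPU and RBM39 joined, neither of which was called, and the median of these 8 members was 2.40. The window of RBM39, at 54.4% A, lay just under the higher limit. Among protein-coding genes, 1163 (8.87%) had a window of at least 50% A, 56.3% of them rose and their median was 1.04. The Spearman correlation between window A content and log2 fold change across the members was 0.48, and it was 0.34 with the offset on transcript A content.

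**Figure D3:**
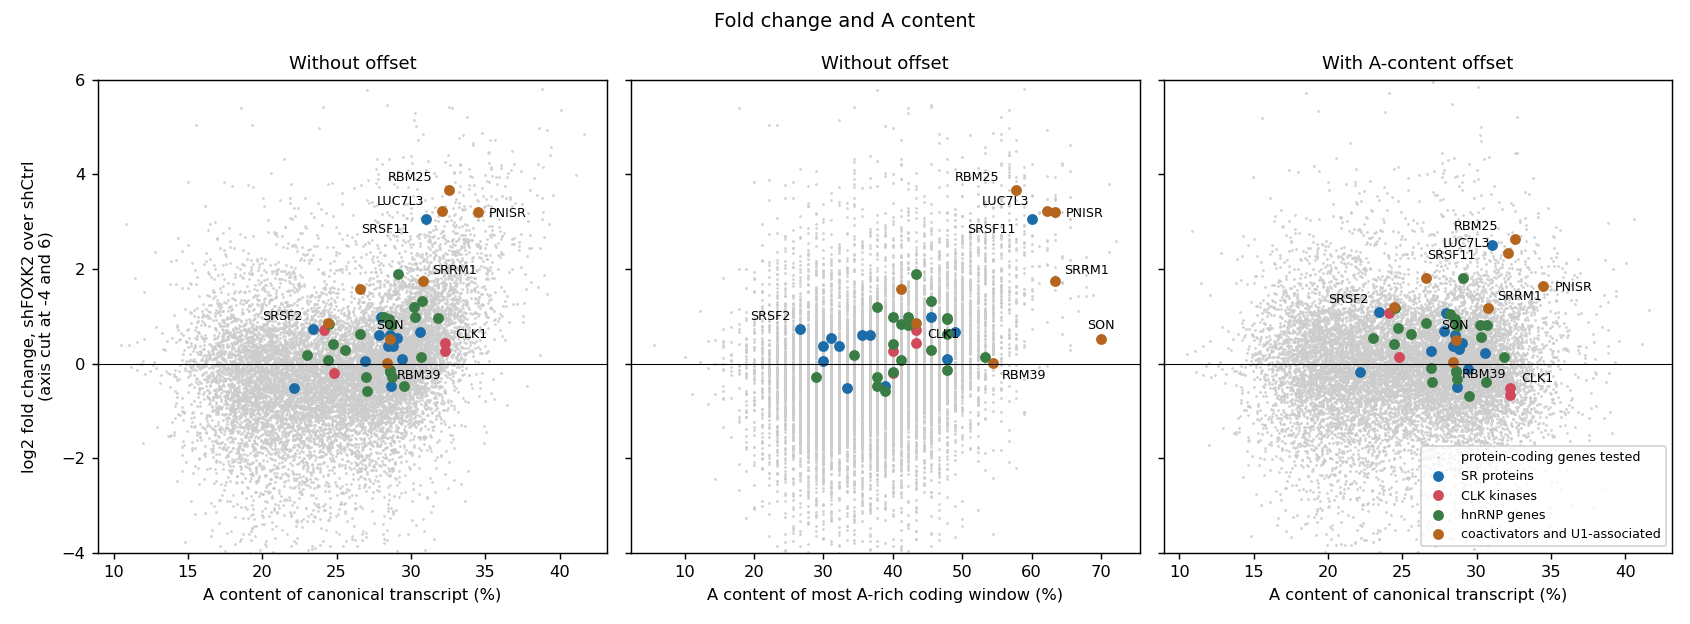
Log2 fold change in shFOXK2 over shCtrl against transcript A content and against A content of the most A-rich coding window, in percent, without the offset, and against transcript A content with the offset. Grey points are 13113 protein-coding genes and coloured points are the 46 tested members by family, with RBM25, LUC7L3, PNISR and SRSF11 at the upper right, SON at the far right of the window panel near 0.51, and no slope left under the offset.

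Most members are annotated with noncoding transcript forms, and counts per gene do not separate these from productive mRNA. In GENCODE v44, 38 of 46 tested members (82.6%) had at least 1 transcript annotated as a target of nonsense-mediated decay, against 46.8% of 13114 protein-coding genes tested, and 37 (80.4%) had 1 annotated with a retained intron, against 60.6%. All 13 tested SR proteins and all 8 coactivators and U1-associated genes had an annotated decay target. These shares did not part the members that rose, 81.0% with a decay target, from those not called, 87.5%. Well-studied genes have more annotated transcripts, which bears on these shares too. Of the 46 members, 21 overlapped a gene on the opposite strand, 12 of the 21 that rose and 9 of the 24 not called.

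The forkhead motif TGTTTAC, searched on both strands (GTAAACA on the other), was found in 1 of 64 RefSeq promoter windows of 46 members with a promoter (1.56%) and in 1202 of 35116 promoter windows of all genes (3.42%). The windows held 250 bases before to 50 after a start site on GRCh38.p14. The match lay in a CLK4 window (chr5:178627001-178627300, minus strand), 222 bases before the start. CLK4 was not called without an offset and was lower with the A-content offset, at -0.66 (edgeR adjusted p = 0.0354). Introns and intergenic sequence, where the study also placed FOXK2 peaks, were not searched.

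Genes that act with these families were counted from lists of 9 classes. Together they held 123 genes, of which 115 were tested, 46 rose (40.0%) and 6 fell (5.22%), with a median log2 fold change of 0.41, where 25.7% of all genes tested rose and 22.7% fell. The shares of the single lists below are to be read against these, and several lay near them. With the A-content offset, 55 rose and 11 fell, where 28.2% and 23.0% of all genes did. The SR protein kinases and importins had 5 rises and no fall among 8 genes. SRPK1 and SRPK2, which phosphorylate SR proteins in the cytoplasm for nuclear import, were at 79.8 and 53.8 CPM against 128 and 164 CPM (log2 fold change 1.13, edgeR adjusted p = 0.00348) and at 39.2 and 31.7 CPM against 67.1 and 81.7 CPM (log2 fold change 1.07, edgeR adjusted p = 0.00401). PRPF4B, a kinase of the spliceosome, was at 56.7 and 36.3 CPM against 164 and 232 CPM (log2 fold change 2.09, edgeR adjusted p = 8.38e-05), and TNPO1, the importin of HNRNPA1, had a log2 fold change of 1.44 (edgeR adjusted p = 0.00443). SRPK3, a muscle kinase counted among the 5, had 3 and 1 counts in shCtrl, at the floor, against 25 and 33, passed the filter only through shFOXK2 and overlaps PLXNB3 on the same strand. With at least 10 counts in every library it dropped out and 4 of 7 rose.

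Among exon junction complex genes 7 of 11 rose and none fell, with a median log2 fold change of 0.72. UPF3B, which links the junction complex to decay, was at 6.41 and 4.67 CPM against 74.1 and 96.6 CPM (log2 fold change 3.94, edgeR adjusted p = 1.44e-06), PNN, which encodes pinin, had a log2 fold change of 2.41 and UPF3A one of 1.86. The nonsense-mediated decay list split, with 2 rises and 2 falls of 10, and its median of -0.25 turned to 0.04 under the A-content offset and 0.03 when GC was corrected for. Its rises were 1 without shFOXK2 1 and 3 and the median -0.08 without shFOXK2 2. UPF2 rose by a log2 fold change of 2.61, while SMG8 and SMG6 fell by 1.57 and 1.53 on the log2 scale. U1 and Sm proteins had 5 rises of 10 tested and no fall, led by SNRPF at 1.37 and SNRPD1 at 1.17, with 2 rises without shFOXK2 2 and 3 without shCtrl 1. U2 snRNP and U2AF genes had 6 rises of 18 and no fall, led by the helicase DDX46 at 2.71, U2AF1 at 2.33 and SNRPB2 at 1.68, and U2AF1 has a near-identical copy in the human assembly that makes its counts uncertain.

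The tri-snRNP list had 5 rises and 2 falls of 15, and the falls were its large core proteins. PRPF8, the scaffold at the catalytic centre, was at 615 and 657 CPM in shCtrl and at 305 and 285 CPM in shFOXK2 (log2 fold change -1.11, edgeR adjusted p = 0.00147), and its helicase partner SNRNP200 was at 553 and 601 CPM against 306 and 288 CPM (log2 fold change -0.96, edgeR adjusted p = 0.0037). SNRNP27, a small RS-domain protein of the same particle, rose by a log2 fold change of 1.49. The Prp19 complex had 5 rises of 11, led by ISY1 at 1.41, SYF2 at 1.36 and CDC5L at 1.05, and with the A-content offset 2 rose and 2 fell, so this list's direction depended on the correction. Its rises were 3 without shCtrl 2 and 3 without shFOXK2 2. Among hnRNP-type proteins with other names, 5 of 14 tested rose and 2 fell, with 3 rises without shFOXK2 2. PTBP2, the neuronal polypyrimidine tract binding protein, rose by a log2 fold change of 1.76, while the poly(C)-binding proteins PCBP4 and PCBP1 fell by 1.50 and 1.07 on the log2 scale. Tissue splicing regulators had 6 rises of 18 tested and no fall, with MBNL1 at 1.24. MBNL3 is among the 6, had 5 and 3 counts in shCtrl against 49 and 71 and passed the filter only through shFOXK2. With at least 10 counts in every library 5 of 16 rose. The rises were 2 without shCtrl 2, 3 without shFOXK2 1 and 3 without shFOXK2 2.

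**Figure D4:**
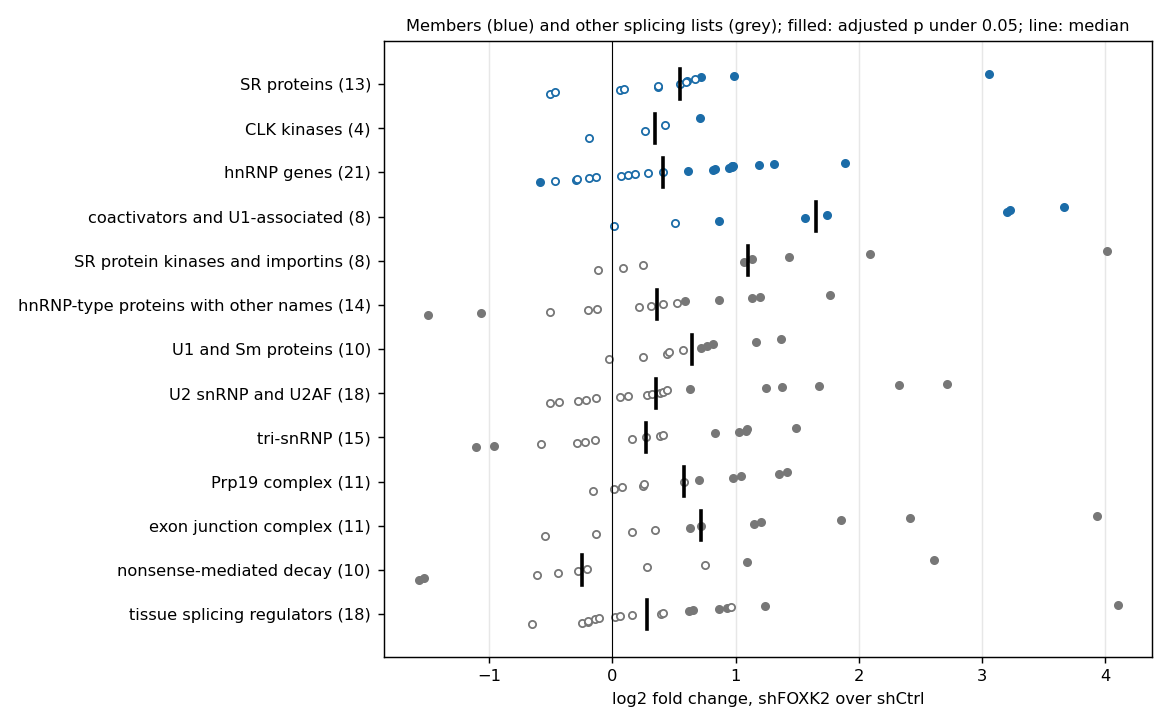
Log2 fold change in shFOXK2 over shCtrl of every tested gene in each member family and each other splicing list, 1 point per gene (blue for members, grey for other lists, filled where called), with a bar at the median of each list. The coactivators and U1-associated genes have the highest median of the member families, 1.66, and the nonsense-mediated decay list is at -0.25, which turned positive with the A-content and GC offsets.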

How the data were processed

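Poly(A)-selected RNA of 4 OVCAR5 samples (2 shCtrl, 2 shFOXK2, from the sample titles) was made into libraries with NEBNext Ultra II and sequenced single-end. The authors aligned the reads with STAR 2.5.2 to hg38 (GRCh38), counted them per gene symbol with HTSeq and deposited raw counts, without normalization. The annotation and strand setting are not given in the sources used here. HTSeq in its usual setting drops reads with several best places, which lowers the counts of near-identical copies.

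Counts were filtered with filterByExpr, scaled with TMM (trimmed mean of M values) and tested with edgeR 4.0.16 (quasi-likelihood F test, 2-sided, R 4.3.3), with Benjamini-Hochberg adjustment over 16417 genes and a threshold of 0.05. CPM were scaled with the TMM factors. The SE of a log2 fold change was its size divided by the square root of F. Fold changes are those of shFOXK2 over shCtrl. With 2 libraries in each group, an exact permutation test cannot go below p = 0.333, so the p-values rest on sharing of variance between genes. The libraries of a group differed by far more than sampling noise (chi-square per gene 36.4 and 24.8), so none was a copy of another.

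Composition and annotated transcripts came from GENCODE v44 canonical transcripts on hg38, to which 36901 of 56655 symbols (65.1%) matched, 1147 of them by an older symbol. The A-content, GC and length offsets were smooth curves (lowess, span 0.2) fitted to each library over all genes. The alternatives were DESeq2 1.42.0 (Wald test and size factors), the exact test of edgeR, a minimum log2 fold change of 1 (glmTreat), other filters and scalings, the offsets, a replicate block and leaving out each library. The steps were tested on simulated data.

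Members and lists were chosen with earlier results of these data known. Genes were named by rule: FOXK2, the CLK genes, up to 5 of the largest called rises and falls that did not overlap in each family, up to 2 of the most abundant not called, the untested members, up to 3 called genes of largest change in each other list, and members whose call was lost. The remaining members are named to account for all of them. The crossed replicate block and the 4 lists of the closing observations were added after the values were seen.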

Additional observations from a re-analysis of the deposited data

Results flagged for a closer look

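Left out of the members were 127 pseudogene symbols of these families, of which few had enough counts to be tested. Of those tested, 3 rose in shFOXK2 by the edgeR quasi-likelihood test and none fell, where 25.7% of all genes tested rose. HNRNPA1P59, HNRNPCP2, HNRNPKP2, HNRNPKP4 and HNRNPLP2 were not called, with both shFOXK2 libraries below both shCtrl libraries. HNRNPUP1 and HNRNPA3P6 were not called either, with positive log2 fold changes. HNRNPCP1 (chr14:58521223-58521988) was at 10 and 5 counts in shCtrl and at 53 and 82 in shFOXK2, a log2 fold change of 3.39 (SE 0.45, edgeR adjusted p = 6.79e-05), and it lies within KIAA0586 on the same strand. HNRNPA1P16 (chr17:2306761-2307715), which lies within SRR on the same strand, was at 10 and 7 counts against 20 and 26 (log2 fold change 1.66, SE 0.47, edgeR adjusted p = 0.00989). HNRNPA1P48 (chr16:51553436-51647132) was at 74 and 55 counts against 105 and 107 (log2 fold change 0.97, SE 0.34, edgeR adjusted p = 0.0292). HNRNPCP1 and HNRNPA1P16 passed the filter on counts only through shFOXK2, the group where they were higher, so their rises were favoured by the filter. Reads of the parent or host gene may be among the counts of all these pseudogenes, and this was not tested.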

How the results depend on the processing

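Of the 22 members called, 16 kept their call and direction under all 13 alternatives other than the minimum fold change and leaving out a library. The exceptions were CLK2, HNRNPA2B1, HNRNPDL, HNRNPF, HNRNPR and TRA2B. With glmTreat, against a log2 fold change of at least 1, 7 members rose (15.2%) and 0 fell. Of the other splicing lists 12 genes rose (10.4%) and 1 fell (0.87%). Among all genes 12.5% rose and 8.1% fell in this test, so the other lists had no excess of rises there. The number of members that fell was 4 with the A-content offset, 4 with the GC offset (24.1% of all genes), and 0 with at least 10 counts in every library (21.6%). In the other lists 11 fell with the A-content offset, 10 with the GC offset and 10 without a filter (12.3% of all genes). The members' median was 0.34 with the GC offset. Leaving out single libraries gave 14 to 20 rises, 0 to 1 falls and a median of 0.33 to 0.64 in the members, 35 to 41 rises and 6 to 10 falls in the other lists, and -0.57 to -0.22 for FOXK2.

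Deviations of same-numbered libraries correlated at -0.11, which gave no sign of pairing by replicate number. With 2 libraries in each group this rests on a single contrast per group, so it cannot settle whether same-numbered libraries were prepared together. With the replicate block 18 members rose and 0 fell (24.1% and 20.2% of all genes). With the block and the A-content offset 4 fell (24.1% of all genes). With the block and the GC offset 5 fell (24.7% of all genes) and the median was 0.34. In the other lists, 11 and 10 fell under these last 2 fits. With the crossed pairing as block, 25 members rose and 1 fell (26.9% and 23.9% of all genes), and 48 and 11 of the other lists did. The block ended the calls of CLK2 (edgeR adjusted p = 0.075), TRA2B (0.0964), HNRNPDL (0.0925) and HNRNPF (0.106).

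Directions reversed only for members not called, apart from HNRNPR. With the A-content offset these were CLK1 at -0.51, CLK4 at -0.66, CLK3 at 0.14, SRSF5 at -0.11 and HNRNPU at -0.39, and with the block as well -0.51, -0.66, 0.14, -0.10 and -0.37. With the GC offset they were CLK1 at -0.20, CLK4 at -0.51, CLK3 at 0.10, SRSF10 at -0.25, SRSF3 at -0.17, SRSF1 at -0.29, RBM39 at -0.14, HNRNPR at -0.075 and HNRNPU at -0.12, and with the block as well -0.20, -0.51, 0.10, -0.25, -0.16, -0.27, -0.14, -0.0676 and -0.11. RBM39 was at -0.0060 with DESeq2 and at -0.0060 with its size factors in edgeR, and without a filter RBM39 was at -0.094, SRSF5 at -0.0117, SRSF8 at -0.043 and HNRNPUL1 at -0.035. Without single libraries, log2 fold changes ranged from -0.073 to 0.14 for HNRNPUL1, -0.59 to 0.20 for HNRNPH2, -0.082 to 0.58 for CLK4, -0.013 to 0.11 for SRSF5, -0.036 to 0.073 for SRSF8 and -0.29 to 0.24 for RBM39. The causes of these changes were not tested.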

Other observations

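Lists put together after the members' values were known gave further counts by the edgeR quasi-likelihood test, as a description. Over all genes tested, 25.7% rose and 22.7% fell, and with the A-content offset 28.2% rose and 23.0% fell. Of 27 other RS-domain proteins of nuclear speckles, 15 rose (55.6%) and none fell, with a median log2 fold change of 0.93. With the A-content offset 17 of them rose (63.0%) and 2 fell (7.41%). PPIG, a cyclophilin with an RS-rich tail, was at 20.4 and 15.8 CPM in shCtrl and at 350 and 542 CPM in shFOXK2 (log2 fold change 4.62, SE 0.31, edgeR adjusted p = 4.45e-07). SREK1, an SR-type regulator, was at 46.4 and 20.9 CPM against 328 and 436 CPM (log2 fold change 3.50, edgeR adjusted p = 9.37e-06). NKTR, another cyclophilin with an RS-rich tail, was at 28.5 and 10.3 CPM against 183 and 253 CPM (log2 fold change 3.48, edgeR adjusted p = 2.45e-05). In each of these 3 genes both shFOXK2 libraries lay above both shCtrl libraries.

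Of 9 minor spliceosome proteins, which act on the rare U12-type introns, 6 rose (66.7%) and none fell, with a median log2 fold change of 1.46. ZRSR2, which reads the 3' splice site of these introns, went from 3.36 and 2.74 CPM to 13.7 and 17.7 CPM (log2 fold change 2.36, edgeR adjusted p = 9.82e-05). ZCRB1 was at 29.9 and 31.9 CPM against 94.4 and 159 CPM (log2 fold change 2.04, edgeR adjusted p = 0.000105), and with the A-content offset it was at 0.14. RNPC3 had a log2 fold change of 1.96. Of 8 LSm proteins 3 rose (37.5%) and none fell, and of 14 m6A writers and readers 5 rose (35.7%) and none fell. Both shares of rises stand beside 25.7% of all genes tested. In 10 of the 14 m6A genes both shFOXK2 libraries lay above both shCtrl libraries, and in 4 both lay below. The same held for 39.2% (above) and 36.2% (below) of all genes tested. ZC3H13, a zinc finger subunit of the m6A writer complex, was at 71.9 and 32.6 CPM against 363 and 437 CPM (log2 fold change 2.94, edgeR adjusted p = 2.49e-05).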
